A study of Mus musculus with 18 samples.

Results

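Ribosome biogenesis and RNA polymerase I were followed in mouse epidermis through 40 genes, chosen by symbol from the coding-sequence count table and all found among its 20655 genes. They comprised 6 genes of RNA polymerase I and its initiation factors, 7 core proteins of small nucleolar ribonucleoproteins (snoRNPs), 5 abundant or associated nucleolar proteins, 12 factors of small-subunit assembly and 10 of large-subunit assembly. The rule is a list of symbols and uses no measured value. All 40 passed the low-count filter in ribosome footprints and in RNA, where 11448 and 11096 genes were tested.

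The stated source of the libraries was basal cells of the epidermis, collected at E18.5 from embryos whose skin had been transduced by injection in utero at E9.5. The first group was HrasG12V shEif2b5, of strain FR-HrasG12V, with the oncogenic Hras allele and a hairpin against Eif2b5. The second group was HrasG12V shScram, of the same strain and genotype, with a scrambled hairpin. The third group was WT shScram, a stock carrying the Gt(ROSA)26Sortm4(ACTB-tdTomato,-EGFP)Luo reporter, with the scrambled hairpin. Each group had 3 ribosome footprint and 3 RNA libraries, so that all 18 came from transduced, cycloheximide-treated tissue, and there was no WT group with the Eif2b5 hairpin. Strain and genotype cannot be told apart, and the labels give no driver for the HrasG12V allele and no share of transduced cells. The genotype of WT shScram footprint library 1 is labelled Rosa26. Whether the 3 libraries of a group stem from different embryos is not labelled, so the p-values reflect the spread among these libraries, which may be technical.

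Ribosome biogenesis starts in the nucleolus, where RNA polymerase I transcribes the large ribosomal RNA precursor. Small nucleolar RNPs guide its methylation and pseudouridylation, and assembly factors fold, cut and export the small and large subunits. The process uses much of the energy of a dividing cell and is driven by growth signals, among them Ras signalling and the MYC transcription factors. Eif2b5 encodes a subunit of eIF2B, the exchange factor that reloads eIF2 with GTP for each round of translation initiation.

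Totals were between 3319175 and 4933298 counts per footprint library and between 1771365 and 5505386 per RNA library. Eif2b5 footprints were 82.7, 78.5 and 95.4 CPM (counts scaled to library size) in HrasG12V shEif2b5, against 91.9, 93.1 and 102 CPM in HrasG12V shScram, a log2 fold change of -0.16 (SE 0.12, edgeR adjusted p = 0.994). Eif2b5 RNA was 134, 128 and 143 CPM in HrasG12V shEif2b5 and 127, 388 and 145 CPM in HrasG12V shScram (-0.68, SE 0.37, adjusted p = 0.257), so a lower level of the targeted gene was not detectable in either kind of library. The summed footprints of 8 basal keratinocyte markers lay at 13409 to 14805 CPM in HrasG12V shEif2b5, 10209 to 14556 in HrasG12V shScram and 9673 to 13708 in WT shScram. Suprabasal markers summed higher than basal markers in every group, at 22833 to 64612, 30680 to 36907 and 22477 to 44856 CPM in the same order, while Cd207 of Langerhans cells was at 0. Dermal fibroblast markers reached 1081 to 1354 CPM in HrasG12V shEif2b5, 1218 to 1810 in HrasG12V shScram and 1271 to 2663 in WT shScram. With suprabasal and fibroblast markers at these levels, the libraries cannot be taken as basal cells alone, and the share of each cell type was not measured. Merkel cell marker footprints were at 13.6 to 14.3, 10.2 to 15.3 and 21.7 to 26.5 CPM in the same order, with both HrasG12V groups below WT shScram. HrasG12V shEif2b5 lay below HrasG12V shScram in footprints of immune (8.07 to 14 and 17.8 to 20.3 CPM) and endothelial markers (2.69 to 3.85 and 5.22 to 11.8 CPM). WT shScram overlapped both groups (13.8 to 19.6 and 2.85 to 16.6 CPM). In RNA the HrasG12V groups overlapped, at 6.34 to 10.9 and 6.21 to 18.8 CPM for immune and 2.26 to 3.63 and 0.565 to 7.42 CPM for endothelial markers. Merkel cell RNA was at 14.4 to 25.5 CPM in HrasG12V shScram, which overlapped WT shScram (23.6 to 26.9), and at 19 to 22.1 in HrasG12V shEif2b5. All these sums are low. The part of cell composition in the results below was not tested, and fewer cells of a type cannot be told apart from less RNA per cell. RNA libraries 1 and 3 of HrasG12V shScram stood apart from the other 7 on the first principal component (41.4 and 40.5, against -27 to 1.33). Library 2 of that group was lowest on the second component, at -31.8 with the next at -12.8, and had the fewest counts. RNA estimates are given with all libraries and without libraries 1 and 3. The latter fit leaves library 2 alone in its group and cannot show whether a call holds.

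The most abundant members were the nucleolar chaperones. Per kilobase of coding sequence, Npm1 (nucleophosmin) had the highest footprint level, at 2212 CPM per kilobase in HrasG12V shEif2b5, 2193 in HrasG12V shScram and 2037 in WT shScram. Ncl (nucleolin), which binds ribosomal RNA precursors, was at 705, 722 and 623, and Nop10, the smallest protein of the pseudouridylation snoRNP, at 594, 606 and 657, in the same order of groups. Ncl was the next highest in both HrasG12V groups and Nop10 in WT shScram. Polr1a, the largest subunit of RNA polymerase I, was lowest in HrasG12V shEif2b5 and HrasG12V shScram (13.4 and 9.94 CPM per kilobase), and Heatr1, a factor of the small-subunit processome, was lowest in WT shScram at 11.3. Summed over all 40 genes, footprints made up 8340, 7492 and 8207 CPM in HrasG12V shEif2b5, 8128, 7388 and 8019 CPM in HrasG12V shScram, against 6913, 7006 and 7537 CPM in WT shScram. The sums of both HrasG12V groups overlapped each other, and the lowest HrasG12V sums lay below the highest WT sum.

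Between HrasG12V shScram and WT shScram, which differ in the Hras allele and strain, 2 members rose in footprints and none fell at an adjusted p under 0.05. In the background, 1.7% of the 11448 genes tested passed in either direction and 1.23% passed as higher. Both were small proteins of snoRNP and large-subunit assembly, Nhp2 and Nip7. The other 38 genes did not pass, but their estimates leaned upward: 33 of the 40 had a fold change above 1, against 48% of all genes, and the median log2 fold change was 0.11, against -0.01 over all genes.

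Nhp2 (chr11:51619735-51623714, plus strand, mm10) encodes an RNA-binding protein of the H/ACA snoRNPs, which direct pseudouridylation, and of telomerase. Its footprints were 93.3, 107 and 100 CPM in HrasG12V shEif2b5, 125, 103 and 104 CPM in HrasG12V shScram, against 55.5, 65.7 and 67.1 CPM in WT shScram. The values of both HrasG12V groups lay above all WT shScram values and overlapped each other. The log2 fold change of HrasG12V shScram over WT shScram was 0.81 (SE 0.13, 1.76-fold, adjusted p = 0.00203). It passed under all 18 alternatives run, with adjusted p-values up to 0.0261.

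Nip7 (chr8:107056877-107060931, plus strand, mm10) encodes a factor of large-subunit assembly. Its footprints were 104, 110 and 121 CPM in HrasG12V shEif2b5, 115, 111 and 115 CPM in HrasG12V shScram, against 56.3, 60.3 and 90.7 CPM in WT shScram. Neither HrasG12V group overlapped WT shScram, although WT shScram library 3 lay well above the other 2 WT libraries. The log2 fold change was 0.72 (SE 0.15, 1.65-fold, adjusted p = 0.0177). This call ended when any 1 of HrasG12V shScram footprint libraries 1, 2 and 3 or WT shScram footprint libraries 1 and 2 was left out, with adjusted p-values of 0.0568 to 0.105.

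The next genes by p did not pass. Dkc1, the pseudouridine synthase that binds Nhp2, Nop10 and Gar1, had 177, 176 and 192 CPM of footprints in HrasG12V shScram, against 134, 124 and 154 CPM in WT shScram (log2 fold change 0.41, SE 0.13, adjusted p = 0.149, and 0.046 without WT shScram footprint library 3). Wdr12, which forms a complex with Pes1 and Bop1 in large-subunit assembly, had 68.4, 75.9 and 71 CPM in HrasG12V shScram, against 59.1, 51.7 and 62.6 CPM in WT shScram (log2 fold change 0.31, SE 0.12, adjusted p = 0.251). Neither gene overlapped between the groups. In all, 10 members had every HrasG12V shScram value above every WT shScram value (25%, against 10.4% of all genes), namely Npm1, Dkc1, Nhp2, Wdr12, Rrp9, Rrn3, Wdr43, Nip7, Tsr1 and Ltv1. Ubtf alone among the members had every value below (9.89% of all genes did), and 20.3% of all genes did not overlap in either direction.

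**Figure D1:**
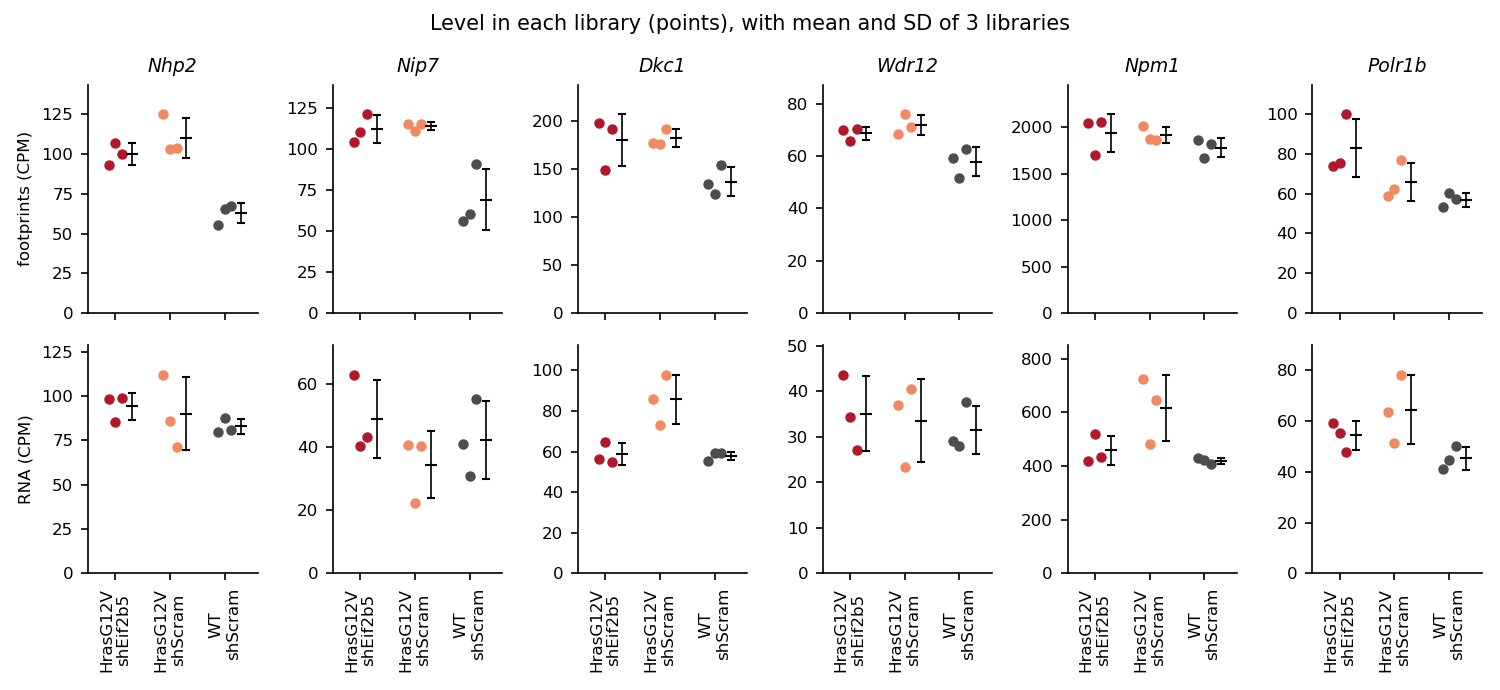
Levels of 6 genes in each library, in CPM, with footprints in the upper row and RNA in the lower row, and the mean ± SD of 3 libraries beside the points. Nhp2 and Nip7 footprints lay higher in both HrasG12V groups than in WT shScram (125, 103 and 104 CPM of Nhp2 in HrasG12V shScram, against 55.5, 65.7 and 67.1 CPM in WT shScram), while their RNA overlapped between all groups.

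By role, the RNA polymerase I genes did not lean one way. Polr1b, the second-largest subunit, had 58.6, 62.3 and 76.9 CPM in HrasG12V shScram, against 53.3, 60.3 and 57.1 CPM in WT shScram. Polr1a had 45, 50.8 and 57.8 CPM in HrasG12V shScram, against 57.4, 61.7 and 58.1 CPM in WT shScram. Both genes overlapped between the groups, and their log2 fold changes were 0.21 (SE 0.15) and -0.21 (SE 0.15), with adjusted p-values of 0.572 and 0.598. Rrn3, which carries the polymerase to the promoter, had 128, 140 and 126 CPM in HrasG12V shScram, against 118, 114 and 121 CPM in WT shScram. Ubtf, the HMG-box factor that holds ribosomal DNA open for transcription, had 208, 196 and 208 CPM in HrasG12V shScram, against 221, 232 and 255 CPM in WT shScram. These 2 factors did not overlap between groups, Rrn3 on the high side and Ubtf on the low side, and neither passed the test (adjusted p = 0.636 and 0.452). Polr1e, a smaller subunit of the enzyme, was at 0.08, and Polr1c, which RNA polymerase III also uses, had means of 52.8 CPM in HrasG12V shScram and 52.9 CPM in WT shScram. The 6 genes had a median log2 fold change of 0.04.

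The 7 snoRNP core genes had a median of 0.16 in HrasG12V shScram over WT shScram, with 6 above 0 and 1 called. The H/ACA proteins spanned most of the range, with Nhp2 at 0.81, Dkc1 at 0.41, Gar1 at 0.33 and Nop10 at -0.12. The box C/D proteins lay closer to 0, with 0.06 for the methyltransferase Fbl (fibrillarin), 0.03 for Nop56 and 0.16 for Nop58. Fbl footprints were 231, 201 and 208 CPM in HrasG12V shScram, against 181, 204 and 231 CPM in WT shScram.

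The 5 nucleolar genes all had estimates above 0, with a median of 0.10 and no call. Ncl had 1711, 1287 and 1595 CPM in HrasG12V shScram, against 1254, 1272 and 1436 CPM in WT shScram (log2 fold change 0.21, SE 0.13, adjusted p = 0.474). Npm1 had 2020, 1878 and 1866 CPM in HrasG12V shScram, against 1862, 1670 and 1821 CPM in WT shScram (0.11, SE 0.12, adjusted p = 0.738). The Ncl values overlapped, and those of Npm1 were separated by a narrow gap, from 1866 CPM in HrasG12V shScram down to 1862 CPM in WT shScram. Mybbp1a was at 0.10, and the helicase Ddx21 and the snoRNP chaperone Nolc1 were both at 0.07.

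Of the 12 small-subunit factors 10 had estimates above 0, with a median of 0.14 and none called. The range ran from -0.10 for Utp20 to 0.34 for Rrp9, which binds the U3 snoRNA (25.6, 21.3 and 22.6 CPM in HrasG12V shScram, against 16.5, 18.6 and 20 CPM in WT shScram, adjusted p = 0.386). Wdr43, a processome factor, had 139 CPM in each HrasG12V shScram library, against 125, 110 and 124 CPM in WT shScram (0.22, adjusted p = 0.421). Ltv1 (0.22), Wdr75 (0.19), the RNA acetyltransferase Nat10 (0.16), the GTPase-like factor Tsr1 (0.15), the helicase Ddx10 (0.14) and the GTPase Bms1 (0.13) lay close together. Heatr1 (0.09), Rrp12 (0.00) and Nop14 (-0.05) were nearer to 0. Of the 10 large-subunit factors 9 were above 0, with a median of 0.09 and Nip7 as the only call. Gnl3 (nucleostemin), a nucleolar GTPase, was at 0.24 and Nop16 at 0.16, while the scaffold proteins Pes1 and Bop1 were at 0.03 and -0.01. Rrp1b was at 0.12, Noc2l at 0.06, Rrs1 at 0.05 and the ribosomal RNA methyltransferase Nop2 at 0.00. Part of the Pes1 coding sequence, 115 bases, overlaps 4930556J24Rik on the other strand, and the strand setting of the counting is not given in the sources used here, so its value is uncertain.

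**Figure D2:**
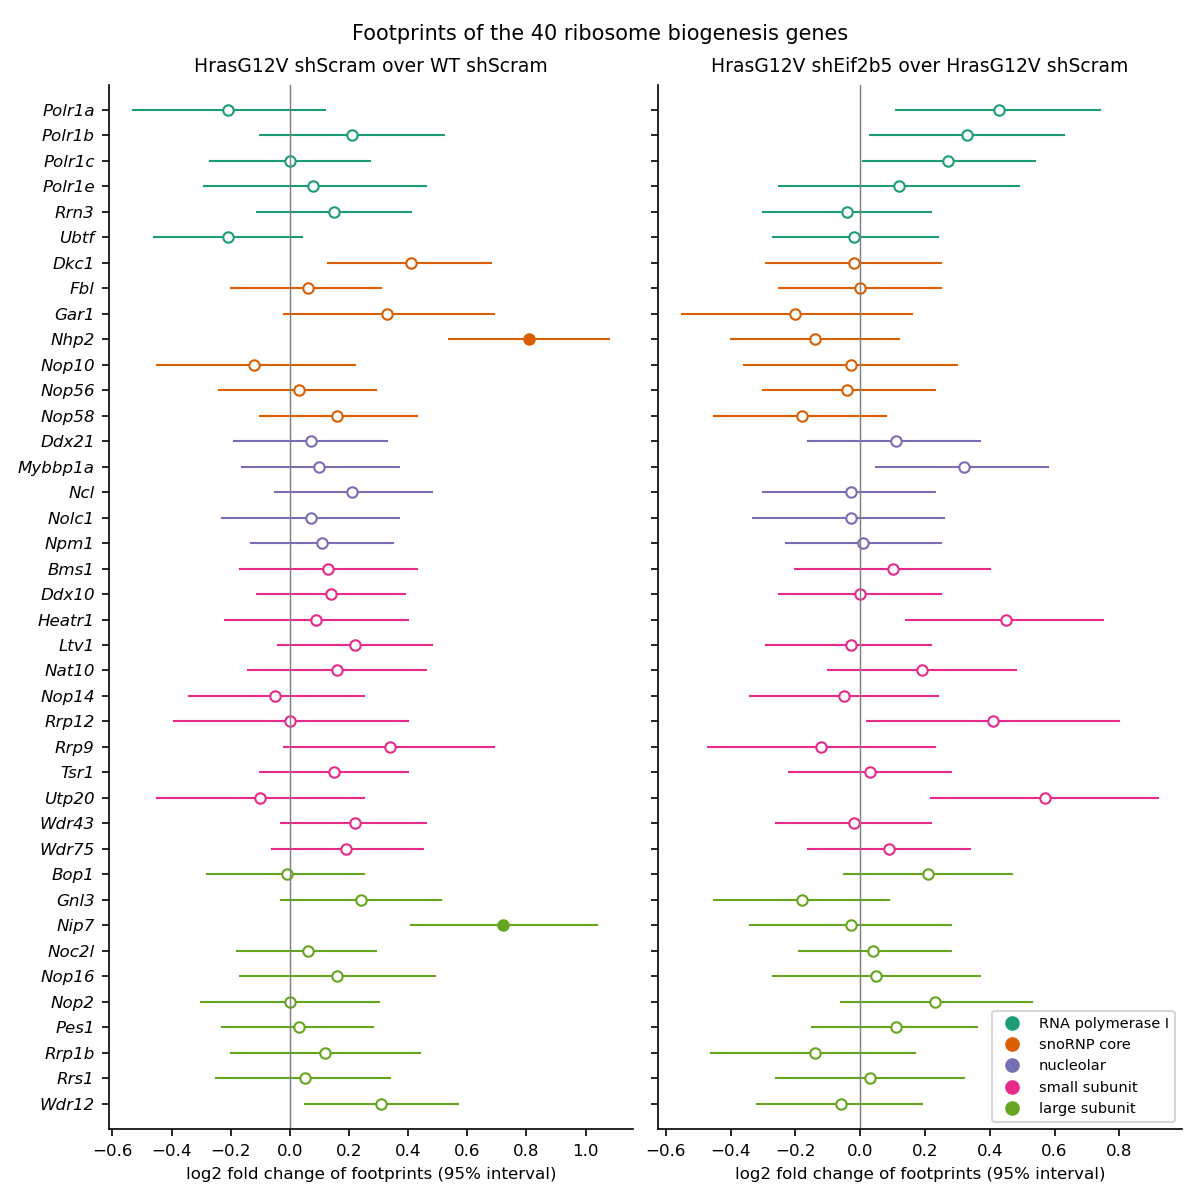
Log2 fold change of footprints with its 95% interval for the 40 genes, grouped by role, for HrasG12V shScram over WT shScram (left) and HrasG12V shEif2b5 over HrasG12V shScram (right); filled points passed an adjusted p under 0.05. Nhp2 at 0.81 and Nip7 at 0.72 stand out on the left, and no gene passed on the right, where Utp20 at 0.57 was the highest.

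The wider pathway leaned upward in footprints too, with few calls. Among 132 other ribosome biogenesis genes, all tested, none passed between HrasG12V shScram and WT shScram in edgeR's quasi-likelihood test. At an unadjusted p under 0.05, 18 were higher and 1 lower (14.3% of all genes in either direction). A fold change above 1 was found in 100 (75.8%, against 48% of all genes), and the median log2 fold change was 0.09. Of 76 tested genes of cytosolic ribosomal proteins 2 rose (2.63%, against 1.23% of all genes) and none fell, with a median of 0.15. They were Rpl10 (0.54, SE 0.13, adjusted p = 0.0305) and Rps29 (0.53, SE 0.12, adjusted p = 0.0327). Both calls ended without any 1 HrasG12V shScram footprint library and without WT shScram footprint library 1 or 2 (adjusted p = 0.0735 to 0.187). Myc, a transcription factor known for driving ribosome biogenesis genes, had footprints of 84.5, 108 and 92.1 CPM in HrasG12V shEif2b5, 81.6, 95.6 and 126 CPM in HrasG12V shScram, against 49.4, 60.5 and 66.6 CPM in WT shScram. It rose in HrasG12V shScram over WT shScram by 0.78 on the log2 scale (SE 0.16, 1.72-fold, adjusted p = 0.0168), and in HrasG12V shEif2b5 over the same WT libraries by 0.68 (SE 0.16, adjusted p = 0.0494). The first Myc call ended without HrasG12V shScram footprint library 3 or WT shScram footprint library 1 or 2 (0.0705 to 0.118). The second held only in the fits without HrasG12V shEif2b5 library 1, HrasG12V shScram library 3 or WT shScram library 3, and its adjusted p was 0.0516 to 0.226 in the others. The Myc RNA log2 fold change of HrasG12V shScram over WT shScram was 0.35 (SE 0.19, adjusted p = 0.277).

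The promoters of the members were read for the MYC and MAX site, the E-box CACGTG, and for the core of ETS factor sites, CCGGAAG or its reverse complement CTTCCGG. RefSeq promoter windows on GRCm38.p6, from 250 bases before to 50 bases after the transcription start, were matched for 35 of the 40 genes, 44 windows in all, and a gene was counted once if any of its windows held the motif. An E-box lay in the window of 8 of 35 genes (22.9%), against 9.32% of 15520 coding genes in the table and 12.2% of the 8754 genes tested in footprints that had a window. The E-boxes of 6 of these genes lay within the first 50 bases after the RefSeq start (17.1%, against 1.37% of the coding genes and 1.96% of the genes tested in footprints). Before the start, 2 genes had one, Nop2 and Rrn3 (5.71%, against 7.96% and 10.3%). The 6 sites after the start are shown because of their shared place and palindrome, each with its flanks and with the E-box in capitals, 5′ to 3′ on the strand of the gene.

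Pes1 (chr11:3963965-3963994, plus strand): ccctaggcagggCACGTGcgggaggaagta
Wdr43 (chr17:71616220-71616249, plus strand): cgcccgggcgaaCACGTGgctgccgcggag
Tsr1 (chr11:74898092-74898121, plus strand): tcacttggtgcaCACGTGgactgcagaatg
Ltv1 (chr10:13193092-13193121, minus strand): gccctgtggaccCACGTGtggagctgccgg
Utp20 (chr10:88826765-88826789, minus strand): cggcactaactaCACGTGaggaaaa
Mybbp1a (chr11:72441355-72441376, plus strand): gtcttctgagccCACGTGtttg

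Counted from 1 at the RefSeq start, the E-boxes began at base 3 in Pes1, 18 in Wdr43, 25 in Tsr1, 29 in Ltv1, 38 in Utp20 and 41 in Mybbp1a. GENCODE starts can differ, and that of Wdr43 (chr17:71615895) lies further upstream. None of these 6 genes was called in footprints in any of the 3 comparisons. The ETS core was found in the windows of 14 of 35 genes (40%), against 13.4% of the coding genes and 20.8% of the genes tested in footprints. Both called genes were among them and neither had an E-box in the window. The 150 bases before the RefSeq start of Nhp2 and of Nip7 are shown because these are the only members called in footprints, with the ETS core in capitals on the strand of the gene.

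Nhp2 (chr11:51619623-51619772, plus strand): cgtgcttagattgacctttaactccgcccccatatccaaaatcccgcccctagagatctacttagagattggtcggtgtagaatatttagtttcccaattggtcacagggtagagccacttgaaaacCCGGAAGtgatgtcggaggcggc
Nip7 (chr8:107056727-107056876, plus strand): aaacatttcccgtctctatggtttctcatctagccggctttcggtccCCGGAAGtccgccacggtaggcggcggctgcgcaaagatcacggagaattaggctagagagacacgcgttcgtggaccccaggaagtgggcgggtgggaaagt

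Counted back from -1 at the last base before the RefSeq start, the core began at base -23 in Nhp2 and at base -103 in Nip7, where its reverse complement also began at base 9 after the start. The GENCODE start of Nhp2 (chr11:51619735) lies within the printed stretch, so its core lies before the RefSeq start but after the GENCODE start. These matches describe the letters in the window, and binding of any factor was not measured.

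Between HrasG12V shEif2b5 and HrasG12V shScram, which differ in the hairpin, no member passed in footprints, and neither did any other of the 11448 genes in edgeR's quasi-likelihood test (0% called, with 4.53% at an unadjusted p under 0.05). Without HrasG12V shEif2b5 footprint library 1, edgeR called 31 of 11606 genes, none of them a member. With all libraries, DESeq2 called 1 gene of the whole table and limma 0, none of them a member. At an unadjusted p under 0.05 there were 7 members, all with higher values in HrasG12V shEif2b5, namely Utp20, Heatr1, Polr1a, Mybbp1a, Polr1b, Rrp12 and Polr1c. The median over the 40 genes was 0.01, and 21 of 40 had a fold change above 1 (50.1% of all genes).

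The 7 members at an unadjusted p under 0.05 belonged to the small-subunit, RNA polymerase I and nucleolar groups, and none passed. Of them, 6 had more than 3000 coding bases, a limit taken up below. Utp20, a large scaffold protein of the processome, had 133, 122 and 147 CPM of footprints in HrasG12V shEif2b5 and 73.8, 85.5 and 112 CPM in HrasG12V shScram. Heatr1, which also takes part in transcription of ribosomal DNA, had 100, 95.9 and 121 CPM in HrasG12V shEif2b5 and 62.9, 75.1 and 95 CPM in HrasG12V shScram. Neither gene overlapped between the groups, Heatr1 by a narrow margin, and the log2 fold changes were 0.57 (SE 0.17) and 0.45 (SE 0.14), both with an adjusted p of 0.994. Polr1a had 57.1, 64.2 and 85.2 CPM in HrasG12V shEif2b5, against 45, 50.8 and 57.8 CPM in HrasG12V shScram (0.43, SE 0.15, adjusted p = 0.994). Mybbp1a, a nucleolar protein that binds MYB, had 386, 371 and 437 CPM in HrasG12V shEif2b5, against 280, 308 and 370 CPM in HrasG12V shScram (0.32, SE 0.13, adjusted p = 0.994). The Polr1a groups overlapped, and the Mybbp1a groups were separated by a narrow margin. Rrp12, known in yeast as an export factor of both subunits, had 54.7, 74.1 and 82.1 CPM in HrasG12V shEif2b5, against 49.5, 48.9 and 60.1 CPM in HrasG12V shScram (0.41, SE 0.18, adjusted p = 0.994). Polr1c had 58.3, 65.6 and 68.1 CPM in HrasG12V shEif2b5, against 53.7, 47.5 and 57.1 CPM in HrasG12V shScram (0.27, SE 0.13, adjusted p = 0.994), without overlap. At the other end, Gar1 was lowest of the 40, at -0.20.

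Ncl had 1631, 1448 and 1408 CPM in HrasG12V shEif2b5, Npm1 2050, 1703 and 2060 CPM, Fbl 230, 203 and 208 CPM, Ubtf 212, 220 and 172 CPM, and Rrn3 112, 122 and 150 CPM. Each of these 5 genes overlapped its HrasG12V shScram values given above. Polr1b had 73.8, 75.6 and 99.9 CPM in HrasG12V shEif2b5 and overlapped with HrasG12V shScram through its library 3. The groups did not overlap in 6 members, all higher in HrasG12V shEif2b5 (15%, against 5.5% of all genes): Nop2, Pes1, Polr1c, Utp20, Heatr1 and Mybbp1a. No member was lower without overlap, against 5.59% of all genes. Of the snoRNP core genes, 1 of 7 was above 0, with a median of -0.04, and of the RNA polymerase I genes 4 of 6 were, with a median of 0.20.

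The estimates between HrasG12V shEif2b5 and HrasG12V shScram followed coding length. The genes with more than 3000 coding bases, a limit chosen after the values were seen, were Bms1, Heatr1, Mybbp1a, Nat10, Polr1a, Polr1b, Rrp12 and Utp20. All 8 had a footprint fold change above 1, with a median log2 of 0.37, against -0.02 for the other 32 genes. The same lean was present over the whole table, where 1649 genes of that length had a median of 0.13 and 75.1% above 0, against -0.02 and 46% for 9744 shorter ones. Across the 40 genes, Pearson's r between the log2 fold change and log coding length was 0.62, and across 11393 genes it was 0.19; genes share the same 6 libraries and are not independent replicates. With offsets for coding GC content and length in each library, added after seeing the data, all 8 long genes stayed above 0 with a median of 0.25, against 0.01 for the other 32. The number of members at an unadjusted p under 0.05 was then 3, and Utp20 had a log2 fold change of 0.35, Heatr1 0.27, Polr1a 0.26 and Mybbp1a 0.19. The part of coding length in these differences beyond this offset was not tested.

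**Figure D3:**
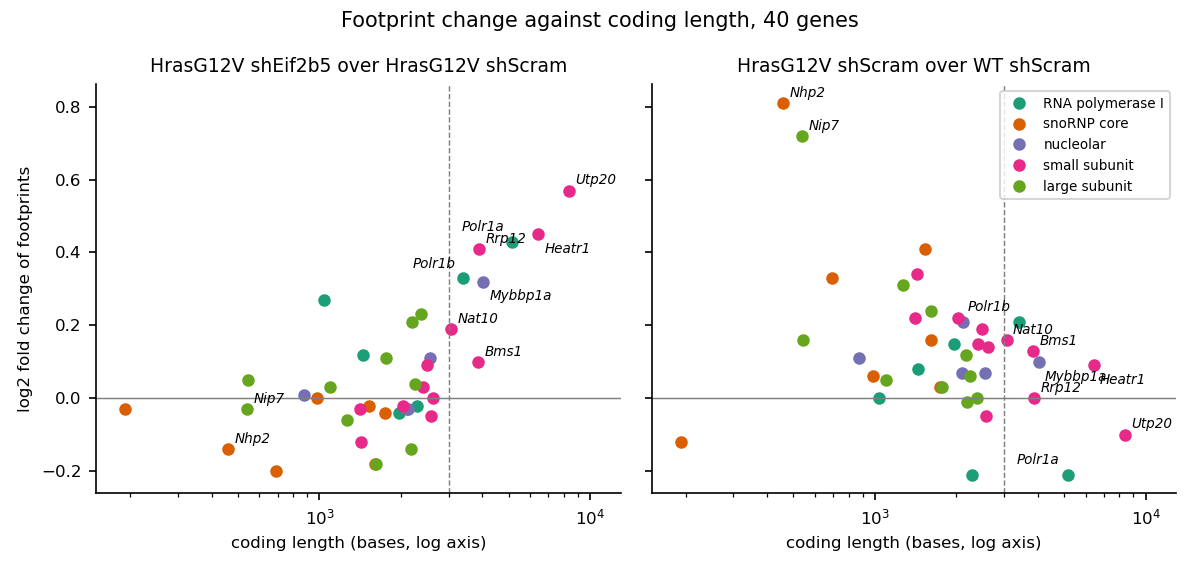
Log2 fold change of footprints against coding length in bases (log axis) for the 40 genes, coloured by role, for HrasG12V shEif2b5 over HrasG12V shScram (left) and HrasG12V shScram over WT shScram (right); the dashed line marks 3000 bases. All 8 genes right of the line lie above 0 in the left panel, with a median of 0.37, and 6 of 8 do in the right panel, with a median of 0.10.

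HrasG12V shEif2b5 was also set against WT shScram, with the same WT libraries as in the comparison above. Nhp2 and Nip7 rose in footprints and no member fell, with 0.97% of all genes called in either direction and 0.76% as higher. The log2 fold change of Nhp2 was 0.67 (SE 0.13, adjusted p = 0.0144), and its call ended without HrasG12V shEif2b5 footprint library 2 or 3 or WT shScram footprint library 1, with adjusted p-values of 0.0562 to 0.0828. That of Nip7 was 0.69 (SE 0.15, adjusted p = 0.0333), and its call ended in 7 of the 9 fits that left out 1 library, all but those without HrasG12V shEif2b5 library 1 or WT shScram library 3, with adjusted p-values of 0.0531 to 0.157. Polr1b (0.54, adjusted p = 0.0813) and Heatr1 (0.54, adjusted p = 0.0836) came next. Both were above WT shScram in all 3 HrasG12V shEif2b5 libraries, where WT shScram had 53.3, 60.3 and 57.1 CPM of Polr1b and 71.4, 73.7 and 73.6 CPM of Heatr1.

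Over all 40 genes, 34 had a fold change above 1 in HrasG12V shEif2b5 over WT shScram (49.2% of all genes) and the median was 0.19. There were 12 members with every HrasG12V shEif2b5 value above every WT shScram value, against 8.32% of all genes, and Ubtf alone lay below (7.75% of all genes). The 12 were Nhp2, Wdr12, Rrp9, Nat10, Polr1b, Polr1c, Utp20, Heatr1, Wdr75, Mybbp1a, Nip7 and Ltv1. Small-subunit factors contributed 11 of 12 estimates above 0, with a median of 0.23, and nucleolar genes 5 of 5, with a median of 0.17. Among the 132 other ribosome biogenesis genes none passed in edgeR's test, and the median was 0.10. At an unadjusted p under 0.05, 16 were higher and 1 lower (14.4% of all genes in either direction). Rps29 (0.67, adjusted p = 0.0131), Rpl31 (0.50, adjusted p = 0.046) and Rplp2 (0.72, adjusted p = 0.047) rose among the ribosomal protein genes (3.95%, against 0.76% of all genes). The Rps29 call ended without HrasG12V shEif2b5 footprint library 2 or 3 (0.0776 and 0.0906), and those of Rpl31 and Rplp2 in all fits with 1 library left out but those without HrasG12V shEif2b5 library 1 or WT shScram library 3 (0.0635 to 0.22).

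In RNA, HrasG12V shScram over WT shScram gave 2 members that rose, Dkc1 and Npm1, and none that fell, where 7.7% of all genes passed in either direction, 4.65% as higher and 3.05% as lower. Dkc1 RNA was 85.9, 73.3 and 97.8 CPM in HrasG12V shScram, against 55.4, 59.1 and 59.1 CPM in WT shScram (log2 fold change 0.57, SE 0.15, adjusted p = 0.0312). Npm1 RNA was 724, 481 and 645 CPM in HrasG12V shScram, against 430, 422 and 409 CPM in WT shScram (0.56, SE 0.16, adjusted p = 0.0447). The groups did not overlap in either gene, and library 2 of HrasG12V shScram was nearest to WT shScram in both. Without HrasG12V shScram RNA libraries 1 and 3, the log2 fold change was 0.34 for Dkc1 and 0.20 for Npm1, in a fit that assumes the remaining library to vary like the other groups. With the GC and length offsets it was 0.31 for Dkc1 (adjusted p = 0.195) and 0.10 for Npm1 (adjusted p = 0.724). The Dkc1 call also ended without HrasG12V shScram RNA library 1 or 3 or any 1 WT shScram RNA library (adjusted p = 0.071 to 0.124), and the Npm1 call without any 1 of the 9 RNA libraries other than HrasG12V shScram library 2 (0.0581 to 0.178).

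Nop10 and Polr1b followed in RNA without passing. Nop10 RNA was 34, 28.9 and 31.9 CPM in HrasG12V shScram, against 18.2, 25.3 and 17.7 CPM in WT shScram (0.66, SE 0.20, adjusted p = 0.0522). Polr1b RNA was 63.6, 51.1 and 78.1 CPM in HrasG12V shScram, against 40.9, 44.7 and 49.9 CPM in WT shScram (0.52, SE 0.17, adjusted p = 0.0745). With the GC and length offsets Polr1b passed (0.59, adjusted p = 0.0417) and Nop10 was at 0.21 (adjusted p = 0.608). Without HrasG12V shScram RNA libraries 1 and 3, Polr1b was at 0.17 and Nop10 at 0.52. The RNA of Nhp2 and Nip7, whose footprints rose, overlapped between the groups. Nhp2 RNA was 112, 86.1 and 71.4 CPM in HrasG12V shScram, against 79.7, 87.8 and 81 CPM in WT shScram, and Nip7 RNA was 40.7, 22.2 and 40.4 CPM in HrasG12V shScram, against 40.9, 30.7 and 55.3 CPM in WT shScram. Over the 40 genes, 25 had an RNA fold change above 1 (50.8% of all genes), the median was 0.06 (26 genes and 0.10 without those libraries), and the range ran from -0.43 for Rrs1 to 0.66 for Nop10. Without overlap, 8 members were higher (Npm1, Nop58, Nop10, Dkc1, Gnl3, Polr1b, Heatr1 and Ltv1, against 13.7% of all genes) and 3 were lower (Nop2, Bop1 and Bms1, against 12.4%). SnoRNP core genes were above 0 in 7 of 7, with a median of 0.22, and large-subunit factors in 3 of 10, with a median of -0.13.

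Between HrasG12V shEif2b5 and HrasG12V shScram, 4 members passed in RNA, where 13% of all genes passed, 5.23% as higher and 7.79% as lower. Dkc1 fell to 56.3, 64.9 and 55 CPM in HrasG12V shEif2b5, against 85.9, 73.3 and 97.8 CPM in HrasG12V shScram (log2 fold change -0.55, SE 0.15, adjusted p = 0.0274). Wdr75, a processome factor needed for ribosomal RNA transcription, fell to 38.1, 40.4 and 33.8 CPM, against 65.7, 38.9 and 70.4 CPM in HrasG12V shScram (-0.66, SE 0.20, adjusted p = 0.0393). Nop58 fell to 97.7, 113 and 87.8 CPM, against 145, 120 and 149 CPM in HrasG12V shScram (-0.48, SE 0.15, adjusted p = 0.0436). Rrs1, a factor of large-subunit assembly, rose to 116, 122 and 159 CPM, against 61.9, 117 and 58.5 CPM in HrasG12V shScram (0.78, SE 0.23, adjusted p = 0.0353). Wdr75 and Rrs1 overlapped between the groups through HrasG12V shScram library 2 alone, whose values lay among those of HrasG12V shEif2b5.

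Without HrasG12V shScram libraries 1 and 3, library 2 was alone in that group, so whether the 4 calls held could not be decided. The log2 fold changes were then -0.31 for Dkc1, -0.04 for Wdr75, -0.27 for Nop58 and 0.18 for Rrs1. With all libraries, 8 members were higher and 6 lower at an unadjusted p under 0.05 (30.5% of all genes in either direction). The fold change was above 1 in 25 of 40 (49.5% of all genes), with a median of 0.12, and in 20 of 40 with a median of 0.03 without those libraries. All 4 calls ended without HrasG12V shScram library 1, without its library 3, and without HrasG12V shEif2b5 library 1 or 3. Other single libraries ended some of them (HrasG12V shEif2b5 library 2 for Rrs1 and Wdr75, WT shScram library 1 for Nop58, Rrs1 and Wdr75, and WT shScram library 2 for Nop58 and Wdr75). Without HrasG12V shScram library 2 instead, 12 members passed in this comparison, where 3150 of all 11289 genes tested did. In HrasG12V shScram over WT shScram 11 members then passed, where 2431 of the 11289 genes did. The deviations of RNA libraries 1 and 3 from the mean of all RNA libraries followed coding GC content, with Pearson's r of -0.44 and -0.58 over all genes and of -0.65 and -0.69 over the 40. The fold changes did too: across the 40 genes r was 0.68 in HrasG12V shEif2b5 over HrasG12V shScram (0.54 across 11041 genes) and -0.63 in HrasG12V shScram over WT shScram (-0.44). With the GC and length offsets, none of the 4 passed, at -0.21 for Dkc1, -0.33 for Wdr75, 0.40 for Rrs1 and 0.07 for Nop58, which changed sign.

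Marker sums of the epidermis differed between groups in RNA too. The 8 basal keratinocyte markers summed to 13499 to 15335 CPM of RNA in HrasG12V shEif2b5, 8752 to 12240 CPM in HrasG12V shScram, and 12217 to 17371 CPM in WT shScram, and the 6 suprabasal markers to 48604 to 59386, 36516 to 64679 and 65689 to 96800 CPM. The 6 melanocyte markers summed to 425 to 555, 583 to 712 and 353 to 556 CPM. On this scale both HrasG12V groups lay below WT shScram in suprabasal markers. HrasG12V shScram lay apart from HrasG12V shEif2b5 in basal markers and from both other groups in melanocyte markers, without overlap. The sums are scaled to total counts alone, and TMM factors of the RNA libraries ran from 0.953 to 1.08. The narrow suprabasal gap (64679 and 65689 CPM) and melanocyte gap (556 and 583 CPM) may thus not hold on the TMM scale. Melanocyte footprints overlapped between all groups (1288 to 1559, 1341 to 1573 and 1215 to 1442 CPM). The part of these marker differences in the RNA changes was not tested.

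**Figure D4:**
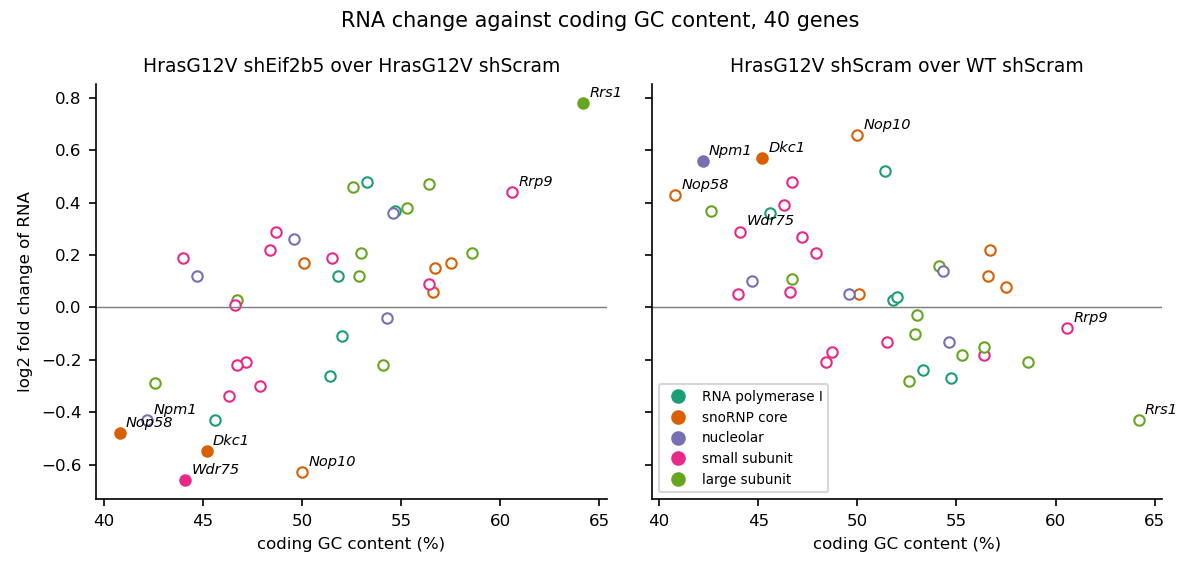
Log2 fold change of RNA against the GC content of the coding sequence in percent for the 40 genes, for HrasG12V shEif2b5 over HrasG12V shScram (left) and HrasG12V shScram over WT shScram (right); filled points passed an adjusted p under 0.05. The estimates run upward with GC content on the left (r = 0.68) and downward on the right (r = -0.63), and the 2 comparisons share the HrasG12V shScram libraries.

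Among the genes given by level in every comparison, Ncl RNA was 648, 835 and 838 CPM in HrasG12V shEif2b5, 625, 960 and 551 CPM in HrasG12V shScram, against 632, 819 and 540 CPM in WT shScram. Ubtf RNA was 383, 304 and 328 CPM in HrasG12V shEif2b5, 208, 323 and 199 CPM in HrasG12V shScram, against 277, 307 and 276 CPM in WT shScram. Both overlapped between all groups, and in HrasG12V shScram library 2 was the highest of both genes. Fbl RNA was 174, 178 and 198 CPM in HrasG12V shEif2b5, 173, 187 and 131 CPM in HrasG12V shScram, against 160, 167 and 135 CPM in WT shScram. Polr1a RNA was 89.6, 102 and 91.1 CPM in HrasG12V shEif2b5, 91.5, 86.6 and 82.5 CPM in HrasG12V shScram, against 83.8, 92.1 and 80.3 CPM in WT shScram. Rrn3 RNA was 62.9, 55.3 and 51.7 CPM in HrasG12V shEif2b5, 83.8, 61.1 and 82.5 CPM in HrasG12V shScram, against 52.2, 57.1 and 68 CPM in WT shScram. Npm1 RNA in HrasG12V shEif2b5 was 420, 521 and 435 CPM and that of Polr1b 59.2, 55.3 and 47.9 CPM, which overlapped both other groups in Polr1b and in Npm1. The coefficient of variation over the 3 RNA libraries of HrasG12V shScram reached 48.1%, in Gar1, the remaining H/ACA protein, at 42.8, 68.8 and 25.3 CPM.

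Between HrasG12V shEif2b5 and WT shScram, no member passed in RNA in edgeR's test, where 0.324% of all genes passed, and 1 member had an unadjusted p under 0.05 (7.32% of all genes did). DESeq2 and limma also called 0 members. That gene was Ddx21, a nucleolar RNA helicase, with 236, 196 and 188 CPM in HrasG12V shEif2b5 and 158, 177 and 164 CPM in WT shScram (log2 fold change 0.32, SE 0.14, adjusted p = 0.635). Noc2l (0.32, adjusted p = 0.705), Rrp9 (0.36, adjusted p = 0.706) and Wdr75 (-0.38, adjusted p = 0.746) followed. The fold change was above 1 in 33 of 40 members (49.7% of all genes) and the median was 0.12. Without overlap, 7 members were higher (7.68% of all genes) and Wdr75 was lower (8.34%). This comparison does not use the HrasG12V shScram libraries for its means.

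Translation efficiency was taken as the level of footprints over RNA, both in CPM, so it is relative to the average gene of a library. The median ratio of the members lay above that of all genes in each group. It was 1.24 in HrasG12V shEif2b5, 1.24 in HrasG12V shScram and 1.18 in WT shScram, against 0.996, 0.976 and 0.993 over 10793 genes. In the top quartile of all genes lay 12, 13 and 12 of the 40 members, and in the bottom quartile 2, 1 and 1. Nop10 had the highest ratio in all 3 groups (5.52, 3.69 and 6.2) and Rrp9 the lowest (0.379, 0.55 and 0.418). The order of the 40 genes was similar between groups, with Spearman's rho of 0.899 to 0.947 for the 3 pairs of groups. These ratios are of means over 3 libraries, without an error of their own.

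Within the roles, the ratio of the RNA polymerase I genes was highest for Rrn3 (2.26 in HrasG12V shEif2b5, 1.74 in HrasG12V shScram and 2 in WT shScram), and lowest for Ubtf in HrasG12V shEif2b5 (0.594) and for Polr1a in HrasG12V shScram (0.591) and WT shScram (0.692). Of the snoRNP proteins Nop10 was highest, and the lowest were Nop56, a core protein of the methylation snoRNPs, in HrasG12V shEif2b5 (0.977) and HrasG12V shScram (1.13) and Nhp2 in WT shScram (0.758). Npm1 led the nucleolar genes at 4.22, 3.12 and 4.25. Mybbp1a was the lowest of them in HrasG12V shScram (1.08) and WT shScram (0.916), and in HrasG12V shEif2b5 it and Ddx21 were both at 1.04. The highest small-subunit factor was Wdr75 in HrasG12V shEif2b5 (2.86), Ddx10 in HrasG12V shScram (1.95) and Ltv1, an export factor of the small subunit, in WT shScram (1.94). Of the large-subunit factors, Nop16 was highest in HrasG12V shEif2b5 and WT shScram (2.66 and 2.18) and Nip7 in HrasG12V shScram (3.33), and the lowest were Rrs1 in HrasG12V shEif2b5 and WT shScram (0.505 and 0.611) and Nop2 in HrasG12V shScram (0.73). Across the 40 genes the ratio was lower where coding GC content was higher, with r of -0.68, -0.54 and -0.65 between the log2 ratio and GC in the 3 groups, and of -0.54, -0.44 and -0.51 over all genes.

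**Figure D5:**
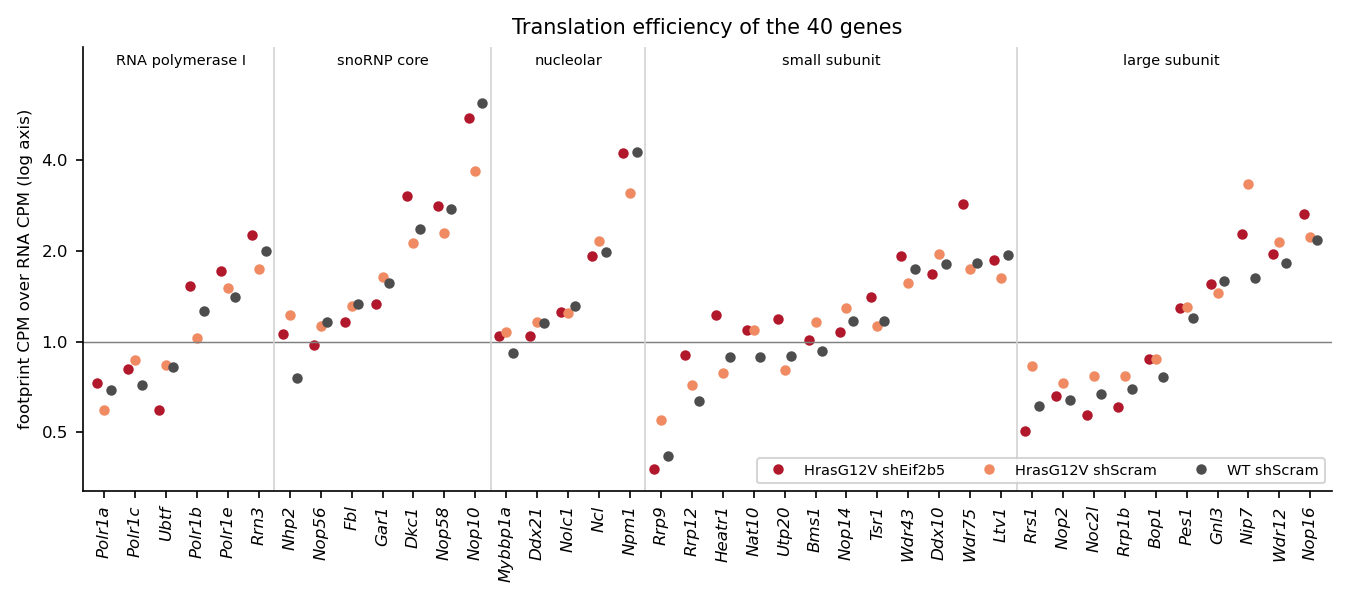
Footprint CPM over RNA CPM (log axis) for the 40 genes, grouped by role, with 1 point for each of HrasG12V shEif2b5, HrasG12V shScram and WT shScram. Nop10 is highest in all 3 groups (5.52, 3.69 and 6.2) and Rrp9 lowest (0.379, 0.55 and 0.418), and most genes keep their place between groups.

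No member passed edgeR's test of changed translation efficiency. The test sets the footprint difference against the RNA difference over all 18 libraries, without a replicate block. For HrasG12V shScram over WT shScram, 1.17% of all genes passed in edgeR's test, and 2 members were higher and 2 lower at an unadjusted p under 0.05 (15.8% of all genes). Nip7 had a log2 difference of 1.00 (SE 0.31, adjusted p = 0.108) and Nhp2 of 0.69 (SE 0.21, adjusted p = 0.095), while Nop10 was at -0.78 (SE 0.25, adjusted p = 0.125) and Npm1 at -0.45 (SE 0.21, adjusted p = 0.284). For HrasG12V shEif2b5 over HrasG12V shScram, 2.11% of all genes passed, and 6 members were higher and 4 lower at an unadjusted p under 0.05 (19.1% of all genes). Wdr75 (0.75, SE 0.23, adjusted p = 0.0793), Heatr1 (0.65, SE 0.20, adjusted p = 0.0824), Dkc1 (0.53, SE 0.20, adjusted p = 0.142) and Rrs1 (-0.76, SE 0.28, adjusted p = 0.142) had the smallest p-values. DESeq2 called 1 member in each of these comparisons, where it called 267 and 445 of all 10793 genes in the same order. The limma test called 0 members, and 102 and 201 of all genes. For HrasG12V shEif2b5 over WT shScram, 0% of all genes passed in edgeR's test, 4 members were higher and 1 lower at an unadjusted p under 0.05 (5.87% of all genes), and DESeq2 and limma called 0 members. Wdr75 (0.66, adjusted p = 0.806), Nhp2 (0.48, adjusted p = 0.839), Heatr1 (0.47, adjusted p = 0.839) and Ubtf (-0.47, adjusted p = 0.84) were the nearest. The first 2 of these comparisons use HrasG12V shScram RNA libraries 1 and 3. Without them RNA library 2 stood alone in that group, and only the estimates are given. Nip7 was then at 1.68, Nhp2 at 0.75, Nop10 at -0.65 and Npm1 at -0.09 in HrasG12V shScram over WT shScram. Wdr75 was at 0.13, Heatr1 at 0.53, Dkc1 at 0.30 and Rrs1 at -0.15 in HrasG12V shEif2b5 over HrasG12V shScram. Across the 40 genes, the translation efficiency differences followed coding GC content with r of 0.53 in HrasG12V shScram over WT shScram and -0.57 in HrasG12V shEif2b5 over HrasG12V shScram. With the GC and length offsets, Npm1 was at -0.04 and Nop10 at -0.51 in HrasG12V shScram over WT shScram, while Nip7 (1.07) and Nhp2 (0.68) changed little. In HrasG12V shEif2b5 over HrasG12V shScram, Wdr75 was then at 0.44, Heatr1 at 0.40, Dkc1 at 0.24 and Rrs1 at -0.37, and 64 and 111 genes of the whole table passed in these comparisons in place of 126 and 228, with no member among them.

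Other genes of the pathway also passed in the RNA comparisons that use these libraries, where the groups of called genes were mixed in direction. Of the 132 other ribosome biogenesis genes, 4 rose and 2 fell in HrasG12V shScram over WT shScram (3.03% and 1.52%, against 4.65% and 3.05% of all genes). The snoRNP protein gene Nhp2l1 (0.88), the processome factor Wdr36 (0.88) and the large-subunit factors Tex10 (0.77) and Rpf2 (0.78) rose, and Ddx51 (-0.69) and Ddx54 (-0.53) fell. In HrasG12V shEif2b5 over HrasG12V shScram, 9 rose and 7 fell (6.82% and 5.3%, against 5.23% and 7.79% of all genes). Tcof1, a cofactor of RNA polymerase I, was at 0.72, Polr2f, a subunit shared by the nuclear polymerases, at 0.80, Ddx27 at 0.69, Nle1 at 0.70, Nob1 at 0.65 and Pih1d1 at 0.53. Tex10 was at -0.89, Wdr36 at -0.89, Utp15 at -0.85 and Nhp2l1 at -0.81. Wdr36 was also the only 1 of the 132 called in translation efficiency, at 0.85 in HrasG12V shEif2b5 over HrasG12V shScram (SE 0.21, adjusted p = 0.0347). It made up 0.758% of the 132, against 1.8% of all genes called as higher.

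Ribosomal protein RNA was called in both directions as well. Rpl39 (1.18) and Rpl30 (0.75) were among those that rose in HrasG12V shScram over WT shScram (3.95% of those tested, against 4.65% of all genes). None fell, against 3.05% of all genes. In HrasG12V shEif2b5 over HrasG12V shScram 4 rose and 5 fell (5.26% and 6.58%, against 5.23% and 7.79% of all genes). Rpl39 at -1.26, Rpl30 at -0.97 and Rps23 at 0.76 came first by p. Mycn RNA fell by 0.76 on the log2 scale in HrasG12V shScram over WT shScram (SE 0.18, adjusted p = 0.0217) and rose by 0.95 in HrasG12V shEif2b5 over HrasG12V shScram (SE 0.18, adjusted p = 0.00578), with no footprint call in either. None of these RNA calls outside the 40 held without HrasG12V shScram RNA libraries 1 and 3, 10 genes in HrasG12V shScram over WT shScram and 26 in HrasG12V shEif2b5 over HrasG12V shScram, and none changed sign. Mycn was then at -0.38 (adjusted p = 0.465) and 0.58 (0.308), Rpl39 at 0.65 (0.0972) and -0.73 (0.0962), and Wdr36 at 0.43 (0.415) and -0.43 (0.45). The translation efficiency difference of Wdr36 was 0.39 (adjusted p = 0.705).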

How the data were processed

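The members and all gene lists were chosen with earlier results of these data known. The authors deposited raw counts of reads on coding sequence, 1 row per gene symbol, and Bowtie, TopHat2, HTSeq and the mm10 build are named per the submitters' processing notes, without versions or a strand setting. All per-sample columns were used. After filterByExpr (10 counts per library, 15 in total) and TMM scaling by kind of library, edgeR 4.0.16 in R 4.3.3 fitted a quasi-likelihood model with robust dispersion to the 9 libraries of a kind. Translation efficiency was tested as the interaction of condition and kind over all 18 libraries. Adjusted p-values follow Benjamini and Hochberg over all genes tested in a comparison, and a gene was called at an adjusted p under 0.05. With 3 libraries a group, exact two-sided permutation p-values end at 0.1, so the model across genes was used throughout. CPM are TMM-scaled.

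Symbols were matched to the GENCODE annotation of mm10, and 98.7% of the genes found an entry, all 40 members included. The fit recovered known changes in simulated counts. These had the same spread for all genes, no library that stood apart and no GC trend, so they do not cover the RNA libraries described above. Alternatives were other size factors, filters and tests (DESeq2 1.42.0, limma 3.58.1), replicate blocks, fits to the compared conditions alone, libraries left out, and offsets for coding GC and length. The offsets, and the fits with libraries left out for genes outside the 40, were chosen after seeing the data. Named genes were every called member, up to 4 by smallest p where fewer passed, Ncl, Npm1, Fbl, Polr1a, Polr1b, Ubtf, Rrn3 and Myc by level, the extremes of translation efficiency in each role, and up to 3 called genes from each other list; further genes were named after their values were seen.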

Additional observations from a re-analysis of the deposited data

Results flagged for a closer look

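Footprints and RNA of Heatr1 went opposite ways in HrasG12V shEif2b5 and HrasG12V shScram, without overlap between the groups. The log2 fold change was 0.45 in footprints, with 100, 95.9 and 121 CPM in HrasG12V shEif2b5 and 62.9, 75.1 and 95 CPM in HrasG12V shScram. In RNA it was -0.21, with 91.4, 85.5 and 81.3 CPM in HrasG12V shEif2b5 and 97.8, 91.6 and 109 CPM in HrasG12V shScram. The test of this difference, translation efficiency in edgeR's model over 18 libraries, gave 0.65 (SE 0.20, adjusted p = 0.0824). With the GC and length offsets it was 0.40 (adjusted p = 0.237). Without HrasG12V shScram RNA libraries 1 and 3, which leaves library 2 alone in that group, the estimate was 0.53.

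Wdr75 was flagged in the same way between HrasG12V shEif2b5 and WT shScram. Its footprints had a log2 fold change of 0.28, with 102, 101 and 119 CPM in HrasG12V shEif2b5 and 96.2, 87.7 and 81.1 CPM in WT shScram. Its RNA had -0.38, with 38.1, 40.4 and 33.8 CPM in HrasG12V shEif2b5 and 47.8, 42.4 and 55.3 CPM in WT shScram. The translation efficiency difference was 0.66 (SE 0.24, adjusted p = 0.806). Groups of 3 were too small to look for single libraries far from the others.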

How the results depend on the processing

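The 2 footprint calls of HrasG12V shScram over WT shScram held under every alternative that kept all libraries. Leaving out 1 library gave 1 to 4 called members, and 73 to 559 genes of the whole table. For HrasG12V shEif2b5 over WT shScram the count of 2 became 4 without the low-count filter, 4 with a replicate block and 1 with only the 2 conditions in the fit. The whole table then had 216, 184 and 44 called genes, in place of 111. With 1 library left out it was 0 to 3, and 37 to 407 genes over the whole table. No alternative called a member in footprints of HrasG12V shEif2b5 over HrasG12V shScram or in RNA of HrasG12V shEif2b5 over WT shScram. With 1 library left out, 0 to 31 genes of the whole table passed in the former and 12 to 80 in the latter. The 31 genes passed without HrasG12V shEif2b5 footprint library 1. The RNA counts were the least stable. In HrasG12V shScram over WT shScram the 2 calls became 0 with a replicate block, 0 with only the 2 conditions and 1 with the GC and length offsets (Polr1b, with Dkc1 and Npm1 lost). The whole table then had 648, 389 and 400 called genes, in place of 854. Leaving out 1 library gave 0 to 11 members, and 189 to 2431 genes of the whole table. In HrasG12V shEif2b5 over HrasG12V shScram the 4 calls became 2, 0 and 0 under the same settings. Leaving out 1 library gave 0 to 12 members, and 197 to 3150 genes of the whole table. With the offsets Nop58 changed sign, to 0.07, and the cause was not tested. Without HrasG12V shScram RNA libraries 1 and 3, library 2 stood alone in that group, so whether the calls held could not be decided. For translation efficiency in HrasG12V shScram over WT shScram, the count of 0 became 1 with DESeq2, a replicate block, and a block per condition and number. The whole table then had 267, 88 and 164 called genes, in place of 126. In HrasG12V shEif2b5 over HrasG12V shScram the 0 became 1 with DESeq2, where 445 genes of the whole table passed in place of 228. Leaving out 1 library gave 0 to 2 members in the first, and 11 to 693 genes of the whole table. In the second it gave 0 to 9 members and 7 to 1350 genes, and in HrasG12V shEif2b5 over WT shScram 0 to 0 members and 0 to 18 genes. The members' median stayed at 0.05 to 0.14 in footprints of HrasG12V shScram over WT shScram and at 0.13 to 0.22 in those of HrasG12V shEif2b5 over WT shScram. In RNA of HrasG12V shEif2b5 over HrasG12V shScram the median of 0.12 was 0.03 without libraries 1 and 3.

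Deviations of same-numbered libraries correlated at -0.14 to 0.22 in footprints and -0.29 to 0.28 in RNA. Libraries of different numbers were not compared, so whether the replicate numbers pair the samples was not tested. The replicate block counts thus rest on a pairing that the labels do not state. Footprint and RNA libraries of the same condition and number correlated at 0.02 to 0.28, with 6 of 9 pairs over 0.1. With a block for these pairs, Nip7 passed in translation efficiency of HrasG12V shScram over WT shScram, and 164 and 330 genes of the whole table passed in place of 126 and 228. The lowest count of a member in any RNA library was 24, in HrasG12V shScram library 2, which had the fewest counts.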
